A study of Mus musculus with 34 samples.

Results

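The comparison described here is the step from day 5 to day 7 in mouse neonatal cardiac fibroblasts infected with a polycistronic retrovirus encoding the 3 factors Mef2c, Gata4 and Tbx5 (MGT). Its members are the 2 arrays labelled as day 7 MGT cells (MGT D7) and the 2 labelled as day 5 MGT cells (MGT D5), 4 of the 34 arrays of the series. The step was chosen because Myh6 rises most in it, so the values of Myh6 are given as a description. The 4 arrays of fibroblasts infected with LacZ virus on the same days (LacZ D7 and LacZ D5) show what those 2 days of culture did without the 3 factors. The samples of all 8 arrays carried the aMHC-GFP genotype on the CD1 strain and started from fibroblasts of pups at postnatal day 1.5, and the starting fibroblasts (CF D0, 2 arrays) are named where their level matters. Total RNA of each culture was labelled with Cy3 and put on a single-colour Agilent array. The labels name no sort of infected or reporter-positive cells. They also do not tell if the 2 samples of a group came from different cultures, so p-values measure the spread between these samples, which may be technical.

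Mef2c, Gata4 and Tbx5 are transcription factors of the developing heart, and delivered together they can turn fibroblasts into induced cardiomyocyte-like cells without a pluripotent stage. The change involves the gradual switching on of the sarcomere, in which myosin thick filaments slide on actin thin filaments anchored at the Z-disc, and of the machinery that releases calcium from the sarcoplasmic reticulum and takes it back. Fibroblast genes, the cell cycle and innate immune signalling are known to change in the same period.

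A level below is log2 of the processed intensity minus the log2 75th percentile of its array, so that 0 is that percentile, and levels of different genes are not set against each other because their probes differ. A change is the mean level on day 7 minus that on day 5, given with its standard error from a limma fit (n = 2 arrays a group). A gene is said to have risen or fallen where the Benjamini-Hochberg adjusted p over 18044 genes was under 0.05 and the change at least 2-fold. The 22 arrays of the course had 48.4% to 71.0% of their spots well above background and no saturated spot. That share was 57.4% and 60.2% in MGT D5, 65.8% and 65.2% in MGT D7, 54.7% and 51.6% in LacZ D5, and 61.2% and 64.3% in LacZ D7. Replicates correlated at r = 0.994 in MGT D5, 0.9968 in MGT D7, 0.9932 in LacZ D5 and 0.9956 in LacZ D7 over all genes tested. The LacZ D14 pair had the lowest correlation of the course, 0.9854, with 1755 genes at least 2-fold apart (532 in MGT D5, 304 in MGT D7). Its replicate 2 had the lowest share of spots above background. It stayed in the fit, whose spread was pooled over all groups. The day 5 arrays lay on 1 slide and the day 7 arrays on another, in both arms, so slide and day cannot be told apart within an arm, while a shift shared by all arrays of a slide cancels in the difference between the arms. The precision of every value is limited by the number of arrays.

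The labels were set against defining markers. Cardiomyocyte markers Myh6, Tnnt2, Actn2, Tnni3, Ryr2 and Nppa were higher on each MGT array than on each LacZ array of the same day. Fibroblast collagen Col1a1 stood at 7.39 and 7.61 in MGT D5 and at 7.46 and 7.33 in MGT D7, against 7.59 and 7.55 in LacZ D5 and 7.34 and 7.29 in LacZ D7, and its MGT change of -0.11 ± 0.28 did not pass the test. Of the other 5 fibroblast markers Col3a1, Dcn, Pdgfra and Ddr2 were lower on each MGT array than on each LacZ array of the same day, while the surface marker Thy1 was higher. Col3a1, the widest apart, stood at 4.45 and 4.56 in MGT D5 against 6.84 and 6.85 in LacZ D5, and at 5.36 and 5.75 in MGT D7 against 7.67 and 7.72 in LacZ D7. In such bulk samples fewer cells of a type and less RNA per cell cannot be told apart.

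Myh6, the alpha myosin heavy chain of the atria and the adult mouse ventricle, stood at 3.23 and 3.00 in MGT D5 and at 6.43 and 6.21 in MGT D7. Its level had been 2.26 and 2.20 in CF D0 and 2.41 and 2.22 on day 3, and it went on to 7.22 and 7.16 on day 10 and 7.27 and 7.10 on day 14. In LacZ cultures it stood at -1.94 and -1.83 on day 5 and at -1.26 and -1.44 on day 7. The starting fibroblast cultures thus carried Myh6 signal above that of the later LacZ cultures, and the MGT cultures left that starting level mainly between days 5 and 7. The change in MGT was 3.20 ± 0.14, which is 9.22-fold, and probes for the gene gave 2.76 to 3.20.

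Between days 5 and 7, 466 genes rose (2.58% of 18044) and 201 fell (1.11%) in MGT cultures, 3.7% in all. In LacZ cultures 549 rose (3.04%) and 510 fell (2.83%), 5.87% in all. Sarcomere, calcium-handling and interferon-response genes were among those that rose in MGT. Of the 466 genes that rose in MGT, 170 (36.5%) also rose in LacZ, while 32 fell there. Of the 201 that fell, 65 (32.3%) also fell in LacZ and 4 rose. The change itself differed between the arms for 348 genes (1.93%), being higher in MGT than in LacZ for 201 (1.11%) and lower for 147 (0.815%). Across genes, which are not independent replicates, the 2 arms' changes correlated at r = 0.447. The share of MGT calls that rose was 69.9%, but 80.4% with quantile normalization, 82.6% with normexp and quantile normalization, 81.5% with the authors' log2 values and 48.7% with no filter on dim probes. In LacZ it was 51.8%, against 68.5%, 62.0%, 62.4% and 19.1%. Genes below background on all 4 MGT arrays (832) had a median change of -0.38, and 38 of the 201 genes that fell were among them. Without MGT D7 replicate 2, 477 genes were called in place of 667. With all 34 arrays of the series in the fit 242 were called, among them 7 interferon, 3 calcium-handling, 2 thick filament and no cardiac channel or junction gene that rose.

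**Figure D1:**
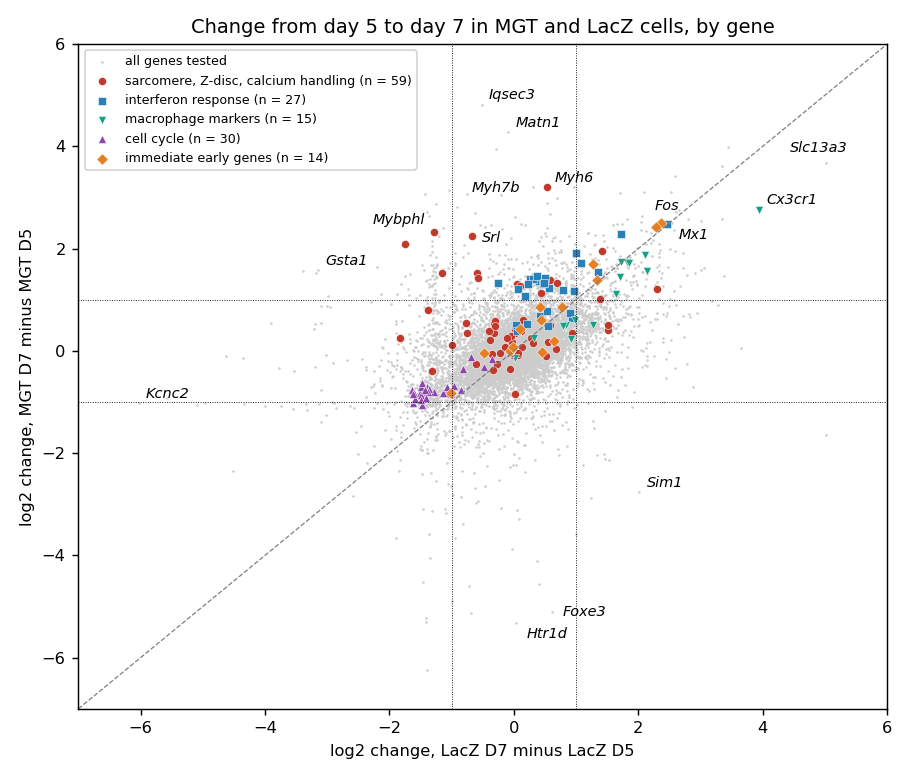
Change from day 5 to day 7 in LacZ cultures (horizontal axis, log2) and in MGT cultures (vertical axis, log2) for each of the 18044 genes tested, with 5 groups of listed genes in colour and the symbol of 15 genes. Dotted lines mark a 2-fold change and the dashed line equal change. Myh6, Myh7b, Mybphl and Srl lie far above the dashed line, Fos and Mx1 lie near it, and the cell cycle genes lie above it with both changes below 0.

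Among the listed sarcomere genes Myh6 and Mybphl had the largest changes. The list of thick filament genes, which build the myosin filament and its M-band, had 11 members tested, of which 3 rose (Myh6, Mybphl, Myh7), none fell and the median change was 0.34. Without Myh6, whose rise chose the step, 2 of 10 rose with a median of 0.31, beside 2.58% and a median of -0.03 for all genes. In the limma fit, unadjusted p was under 0.05 for 4 higher and 1 lower of the 11, beside 2674 and 2923 of all 18044 genes. The upstream 250 bases of the 3 genes that rose are shown because the delivered factors bind DNA and these genes carry the thick filament result, from RefSeq sequence of GRCm38.p6, each read 5′ to 3′ on the strand of its gene. Myh6 lies at chr14:54966608-54966857 on the minus strand, Mybphl at chr3:108364661-108364910 on the plus strand and Myh7 at chr14:54994627-54994876 on the minus strand. Capitals mark a match to the GATA motif AGATAA or TGATAA, and the other motifs searched on both strands (MEF2 as CTANNNNTAG, T-box as AGGTGT, muscle E-box as CAGCTG) had no match in these 3 windows.
Myh6: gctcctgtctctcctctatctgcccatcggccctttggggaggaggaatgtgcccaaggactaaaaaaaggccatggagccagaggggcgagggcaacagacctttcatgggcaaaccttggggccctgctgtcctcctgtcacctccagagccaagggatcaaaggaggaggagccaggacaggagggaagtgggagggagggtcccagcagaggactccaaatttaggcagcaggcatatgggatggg
Mybphl: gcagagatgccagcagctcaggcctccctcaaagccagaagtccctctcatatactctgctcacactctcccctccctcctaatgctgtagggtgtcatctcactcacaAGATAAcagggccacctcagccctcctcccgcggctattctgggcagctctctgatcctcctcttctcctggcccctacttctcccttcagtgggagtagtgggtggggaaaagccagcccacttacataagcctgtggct
Myh7: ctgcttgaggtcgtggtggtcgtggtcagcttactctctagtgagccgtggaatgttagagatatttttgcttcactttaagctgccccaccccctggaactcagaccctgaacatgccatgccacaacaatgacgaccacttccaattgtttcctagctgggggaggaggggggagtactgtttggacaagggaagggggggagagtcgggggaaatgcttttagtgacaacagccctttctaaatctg

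Mybphl, a myosin-binding protein known from the atria and conduction system, stood at -3.22 and -3.37 in MGT D5 and at -1.03 and -0.90 in MGT D7. It rose by 2.33 ± 0.30 (adjusted p = 0.00016). No LacZ array had it above background, so the difference from LacZ, 3.61, includes a change between values below background. Myh7, the beta myosin heavy chain of the fetal ventricle, stood at -2.25 and -2.17 on day 5 and at -0.60 and -1.06 on day 7. It rose by 1.38 ± 0.20 (adjusted p = 0.00046), and the difference from the LacZ change of 0.58 did not pass the test (0.80 ± 0.29, adjusted p = 0.14). Both day 7 arrays were above both day 5 arrays for each of these genes.

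Outside the thick filament list, Myh7b and the noncoding RNA Mhrt also rose. Myh7b, a slow myosin heavy chain gene that hosts a muscle microRNA, stood at -2.01 and -1.99 on day 5 and at 1.24 and 1.18 on day 7. It rose by 3.21 ± 0.24 (9.27-fold, adjusted p = 2.7e-06) and more than in LacZ (difference 2.90, adjusted p = 0.00041). Mhrt, a long noncoding RNA transcribed antisense to Myh7, was above background on neither day 5 array and on both day 7 arrays (-3.24 and -3.47), a rise of at least 3.43-fold. Its probe was matched through an older symbol. An at-least fold compares the brighter group with the lowest signal that counts as above background. Cross-hybridisation between the near-identical myosin heavy chains was not tested.

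The remaining thick filament genes did not pass the test. Atrial light chain Myl4 stood at 8.81 and 9.02 on day 5 and at 8.88 and 8.74 on day 7. The titin gene Ttn, which encodes the molecular spring of the sarcomere, stood at 3.28 and 2.97 on day 5 and at 3.49 and 3.52 on day 7. Myosin-binding protein Mybpc3 stood at 3.98 and 3.87, then 3.80 and 3.54. These genes were on day 5 already far above LacZ, where Ttn was not above background on any array of these days. Ventricular light chains Myl2 (change 0.34) and Myl3 (-0.26) and the atrial Myl7 (0.55 ± 0.23, adjusted p = 0.12) had standard errors of 0.18 to 0.23. The M-band genes Myom1 and Myom2 had changes of 0.25 and 0.27.

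Thin filament genes encode actin, tropomyosin and the troponins that make contraction depend on calcium. Of 11 tested, 1 rose and none fell (beside 2.58% and 1.11% of all genes), and the median change was 0.47. By limma, 6 were higher and 1 lower at unadjusted p under 0.05, beside 2674 and 2923 of all 18044 genes. Tnnc1, the calcium-binding troponin C of heart and slow muscle, stood at 0.42 and 0.54 on day 5 and at 1.66 and 1.57 on day 7, and rose by 1.14 ± 0.16 (adjusted p = 0.00032). Tnni3, the troponin I of the mature heart, stood at 1.00 and 1.00 and then at 2.42 and 2.61. Its change of 1.52 ± 0.52 was larger than that of Tnnc1 but did not pass the test (adjusted p = 0.061). Tnni1, the fetal troponin I, had a change of 0.12 ± 0.22.

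Actc1, the cardiac actin, stood at 7.99 and 8.09 on day 5 and at 8.54 and 8.37 on day 7 in MGT, and at -1.61 and -1.70 and then -0.25 and -0.04 in LacZ. Its MGT change of 0.42 ± 0.12 was under 2-fold, it rose in LacZ by 1.51, and the difference of -1.09 passed the test (adjusted p = 0.0021; without LacZ D7 replicate 2 it was -0.98, under 2-fold). Tnnt2, the cardiac troponin T, was level at 7.96 and 8.11, then 8.03 and 7.95 (-0.05 ± 0.12). Lmod2, which elongates thin filaments, had a change of 0.80 ± 0.36 that did not pass, and its difference from LacZ of 2.17 (adjusted p = 0.027) rests on LacZ values below background. Leaving out 1 array at a time moved that adjusted p as high as 0.11. Acta1, the skeletal actin, and Tpm1, an alpha tropomyosin, had changes of -0.35 and -0.08, and Nebl was below background on all 4 MGT arrays.

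At the Z-disc and costamere, where thin filaments are anchored and force is passed to the membrane, 3 of 21 genes rose, none fell and the median change was 0.21, beside 2.58% higher and 1.11% lower of all genes. Actn2, the alpha-actinin that crosslinks actin at the Z-disc, stood at -1.64 and -1.87 on day 5 and at -0.28 and -0.21 on day 7. It rose by 1.51 ± 0.35 (adjusted p = 0.0086), but the adjusted p was 0.066 without MGT D5 replicate 2 and 0.056 without MGT D7 replicate 2. Tcap, the titin cap protein, stood at 1.38 and 1.48 and then at 2.89 and 2.83, a rise of 1.42 ± 0.29 (adjusted p = 0.0040). Sgca, a sarcoglycan of the membrane complex that binds dystrophin, stood at -2.97 and -2.95 and then at -1.70 and -1.56, a rise of 1.32 ± 0.14 (adjusted p = 3.4e-05). The day 7 values of all 3 genes lay clear of the day 5 values.

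Tcap and Actn2 changed more in MGT than in LacZ (differences 2.00 and 2.11, adjusted p = 0.013 and 0.026). The Actn2 difference rests on LacZ values below background and missed the threshold in 6 of the 8 fits with 1 array left out, with adjusted p up to 0.11. The Tcap difference had an adjusted p of 0.053 without LacZ D7 replicate 2. Des, the muscle intermediate filament, and Hspb7, a small heat shock protein of heart muscle, passed on adjusted p but not on size (0.36 ± 0.06 and 0.57 ± 0.12, adjusted p = 0.0012 and 0.0039). Cryab, another small heat shock protein, had a change of -0.37 ± 0.10. The remaining 15 genes of this list, among them the stretch-responsive Ankrd1 (0.17), the LIM protein gene Csrp3 (0.36), the filamin gene Flnc (-0.06) and the Z-disc scaffold Ldb3 (0.17), lay between -0.40 and 0.54, all with adjusted p above 0.05.

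**Figure D2:**
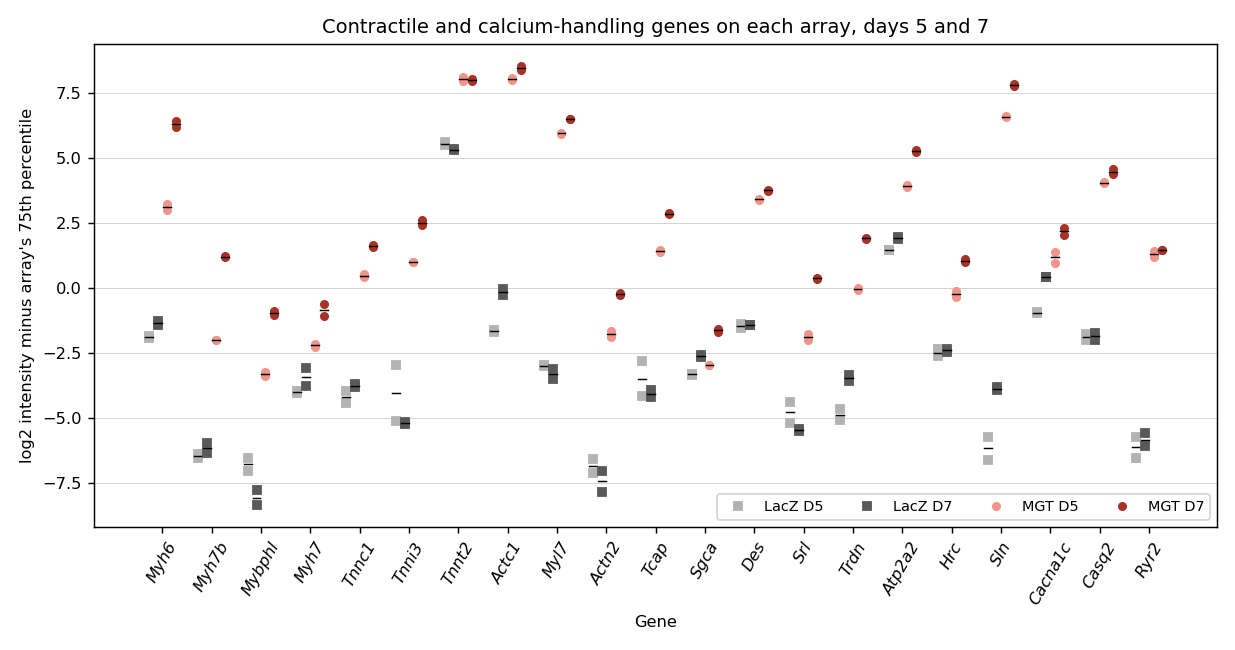
Level of 21 contractile and calcium-handling genes on each of the 8 arrays of days 5 and 7, as log2 intensity minus the 75th percentile of the array. Each point is 1 array, black bars are group means and each gene is to be read only against itself. The Myh6, Myh7b, Srl and Trdn points of MGT D7 lie above those of MGT D5 with no overlap, while Tnnt2 and Ryr2 show changes of -0.05 and 0.16.

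Calcium handling was the muscle list with the highest count. Of its 16 genes, 7 rose (beside 2.58% of all genes), none fell and the median change was 0.55. In LacZ 4 of them rose and 1 fell (beside 3.04% and 2.83% of all genes), with a median of 0.12. The difference between the arms passed as higher in MGT for 3 of the 16, beside 1.11% of all genes. Srl, the sarcalumenin that binds calcium inside the sarcoplasmic reticulum, stood at -1.76 and -1.98 on day 5 and at 0.39 and 0.35 on day 7, a rise of 2.24 ± 0.19 (adjusted p = 7.8e-06). Its LacZ change was -0.67, and the difference of 2.90 passed the test (adjusted p = 0.0001). Atp2a2, the SERCA2 pump that returns calcium to the reticulum, stood at 3.96 and 3.87 and then at 5.31 and 5.22, a rise of 1.35 ± 0.10 (adjusted p = 2.6e-06). Its difference from LacZ of 0.90 (adjusted p = 0.0026) was under 2-fold.

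Trdn, the triadin that ties the release channel to its calcium store, stood at 0.01 and -0.08 on day 5 and at 1.94 and 1.90 on day 7. It rose by 1.96 ± 0.26 in MGT and by 1.41 in LacZ, from -5.08 and -4.67 to -3.58 and -3.35, and the difference of 0.55 did not pass (adjusted p = 0.49). Hrc, the histidine-rich calcium-binding protein of the reticulum, stood at -0.10 and -0.36 and then at 1.10 and 0.99, a rise of 1.27 ± 0.22 (adjusted p = 0.0013). Its difference from LacZ, 1.18 (adjusted p = 0.045), missed the threshold in each of the 8 fits with 1 array left out (0.074 to 0.15). Trdn and Hrc kept their rise in all 4 such fits.

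The other 3 rises were less stable. Pln, the phospholamban that restrains the pump, was above background on no day 5 array and on both day 7 arrays (-4.46 and -4.46), a rise of at least 1.59-fold. Its adjusted p of 0.019 became 0.20 without MGT D5 replicate 2, 0.084 without MGT D7 replicate 1 and 0.088 without MGT D7 replicate 2. Sln, the sarcolipin that also restrains the pump, rose from 6.61 and 6.57 to 7.84 and 7.77 (1.21 ± 0.30, adjusted p = 0.013), with adjusted p of 0.059 to 0.074 whichever array was left out, and it rose in LacZ by 2.30. Cacna1c, the L-type calcium channel of the heart, rose by 1.01 ± 0.14 in MGT and 1.38 in LacZ, but its other probes gave as little as -0.40, and without MGT D5 replicate 2 or MGT D7 replicate 1 its change was 0.81 or 0.87.

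With any 1 array left out, 4 to 6 of the 16 genes were called. Ryr2, the release channel itself, stood at 1.42 and 1.18 and then at 1.45 and 1.47 (0.16 ± 0.29). Casq2, the cardiac calsequestrin that stores calcium, had a change of 0.42 ± 0.12 (adjusted p = 0.026), and the exchanger Slc8a1 one of 0.59 ± 0.14 (adjusted p = 0.011), both under 2-fold. The skeletal L-type channel gene Cacna1s had a change of -0.84 ± 0.28 (adjusted p = 0.05).

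Among 19 genes of cardiac ion channels and cell junctions, 5 rose and none fell, with a median change of 0.39, beside 2.58% and 1.11% of all genes. Kcnd2, a channel of the transient outward potassium current, stood at -3.19 and -3.20 on day 5 and at -1.64 and -1.84 on day 7, a rise of 1.45 ± 0.25 (adjusted p = 0.0015). Kcnh2, the channel of the rapid delayed rectifier current, and Dsp, the desmoplakin of desmosomes, rose by 1.10 ± 0.19 and 1.04 ± 0.14. Kcnj3, an acetylcholine-activated potassium channel, passed the test (adjusted p = 0.032) but was above background on no day 5 array, and its day 7 values were too low to give a fold as a lower bound. Its adjusted p was 0.23 without MGT D5 replicate 1, 0.11 without MGT D7 replicate 1 and 0.13 without MGT D7 replicate 2.

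The difference from LacZ passed for 5 of the 19 members of that list, all higher in MGT, beside 1.11% higher and 0.815% lower of all genes. They were Kcnj3, Kcnh2, Dsp (1.42, adjusted p = 0.0013), the main gap junction gene Gja1 (1.19, adjusted p = 0.00053) and the desmosomal cadherin Dsc2 (1.46, adjusted p = 0.0039). Dsc2 had a change of -0.18 in MGT and fell by 1.64 in LacZ. Of the 5, Dsp, Gja1 and Dsc2 kept the call in all 8 fits with 1 array left out.

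Nppa, the atrial natriuretic peptide, ran against the sarcomere genes. It stood at 2.86 and 2.85 in MGT D5 and at 1.69 and 1.81 in MGT D7, and fell by 1.10 ± 0.15 (adjusted p = 0.00022). In LacZ it stood at 0.04 and 0.02 and then at -0.61 and -0.77, and the difference between the arms did not pass (-0.38 ± 0.21, adjusted p = 0.36). Nppb, its ventricular relative, had a change of -0.65 ± 0.23 (adjusted p = 0.064). Of the 5 natriuretic peptide and related genes none rose and 1 fell, beside 2.58% and 1.11% of all genes.

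None of the delivered factors changed beyond the threshold. Mef2c stood at 1.67 and 1.56 on day 5 and at 0.85 and 0.75 on day 7 in MGT, and at -1.73 and -4.13 and then -2.89 and -3.22 in LacZ. Its change of -0.81 ± 0.52 (adjusted p = 0.32) was tested on the spread pooled over all groups, which includes the LacZ D5 replicates that lay far apart, and both MGT D7 values were below both MGT D5 values. Gata4 had a change of 0.19 ± 0.09 and Tbx5 one of -0.00 ± 0.25. In the limma fit 1 of the 3 was higher at unadjusted p under 0.05, beside 2674 of all 18044 genes. Whether the probes see the transgene, the cell's own gene or both was not tested.

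Among 20 cardiac transcription factors and cofactors 1 rose and none fell (beside 2.58% and 1.11% of all genes), and the median change was 0.07. Hopx, a homeodomain cofactor of heart development, stood at -0.24 and -0.41 on day 5 and at 1.36 and 1.58 on day 7, a rise of 1.79 ± 0.16 (adjusted p = 1.3e-05). Its difference from LacZ was 1.89 (adjusted p = 0.00051). Myocd, the coactivator myocardin, had a change of 0.64 ± 0.20 (adjusted p = 0.041), under 2-fold. Nkx2-5 (0.10), Hand2 (0.17), Tbx20 (-0.08) and Gata6 (0.17) did not pass, and Isl1 and Hand1 were above background on none of the 4 MGT arrays.

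**Figure D3:**
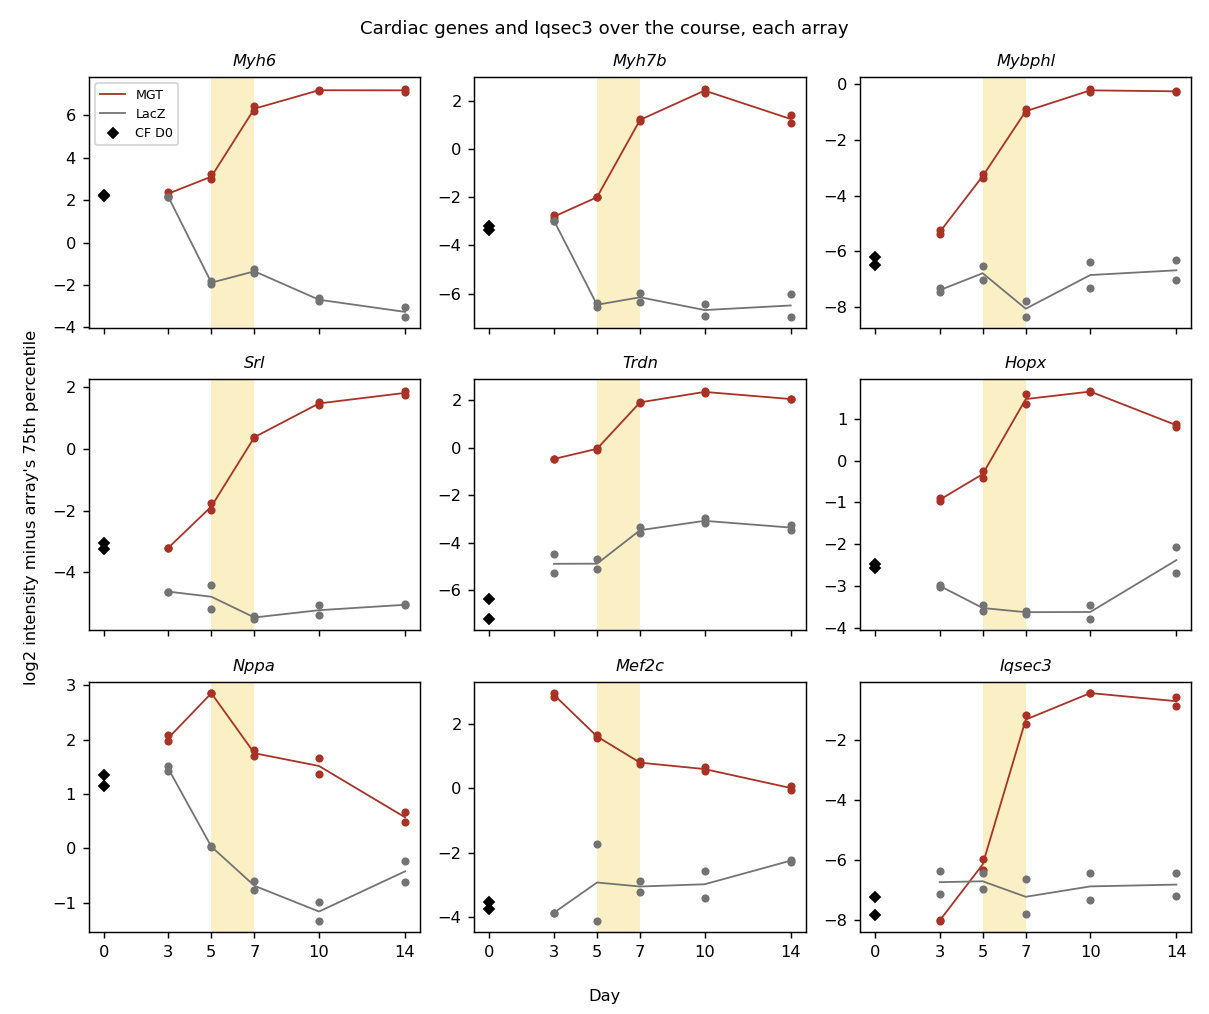
Level of 9 genes on each array over the course, by day, as log2 intensity minus the 75th percentile of the array. Points are single arrays, lines join group means of MGT (red) and LacZ (grey), diamonds are CF D0 and the shaded band is the step from day 5 to day 7. Myh6, Myh7b, Mybphl, Srl, Trdn, Hopx and Iqsec3 climb in MGT within the band, while Nppa falls there and the change of Mef2c, -0.81, did not pass the test.

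Genes of the skeletal muscle programme moved too. Of 19 tested, 5 rose and 1 fell (beside 2.58% and 1.11% of all genes), with a median of 0.35, and 2 to 4 rose with any 1 array left out. Tnnt3, the troponin T of fast skeletal muscle, stood at -0.09 and -0.02 on day 5 and at 1.56 and 1.70 on day 7, a rise of 1.69 ± 0.13 (adjusted p = 2.7e-06). Myh8, the perinatal myosin heavy chain, rose by 1.48 ± 0.17 in MGT and by 1.94 in LacZ. Myl1, a fast light chain, rose by 1.69 ± 0.39 (adjusted p = 0.0089), with adjusted p of 0.061 without MGT D5 replicate 2 and 0.073 without MGT D7 replicate 2.

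Tnni2, the fast troponin I, rose by 1.60 ± 0.45, and its adjusted p of 0.027 became 0.085 to 0.14 whichever array was left out. Myh4, a fast myosin heavy chain, rose at least 1.75-fold, with an adjusted p of 0.04 that became 0.28 without MGT D7 replicate 2, 0.21 without MGT D5 replicate 1 and 0.076 without MGT D5 replicate 2. Chrna1, the muscle acetylcholine receptor subunit that is lost from mature fibres outside the synapse, stood at -4.65 and -3.46 on day 5 and was above background on no day 7 array, a fall of at least 4.35-fold. The fast myosins Myh1 and Myh2 rose in LacZ by 2.13 and 2.82 but had changes of 0.06 and 0.72 in MGT, differences of -2.07 and -2.10 (adjusted p = 0.00018 and 0.00041).

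Genes of energy buffering and muscle metabolism rose in 4 of 11 cases (beside 2.58% of all genes), with a median of 0.56. Adjusted p was under 0.05 with a higher day 7 level for 9 of the 11, beside 3403 of all 18044 genes in either direction. Cox8b, the heart and muscle isoform of a cytochrome c oxidase subunit, rose by 2.01 ± 0.16 in MGT (from -3.13 and -3.01 to -1.09 and -1.03) and by 1.59 in LacZ. Mb, the oxygen-storing myoglobin, stood at 1.07 and 1.04 and then at 2.87 and 2.97, a rise of 1.86 ± 0.37 (adjusted p = 0.0034). Pygm, the muscle glycogen phosphorylase, rose by 1.66 ± 0.11 and more than in LacZ (difference 1.17, adjusted p = 0.0013). Art1, an ADP-ribosyltransferase of muscle, rose by 1.31 ± 0.42, with adjusted p from 0.14 to 0.17 when 1 array was left out.

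General energy pathways moved less. No gene of fatty acid oxidation (26 tested), the respiratory chain (26) or glycolysis (19) rose or fell, with medians of 0.00, -0.04 and 0.10. In the limma fit, unadjusted p was under 0.05 for 6 higher and 3 lower, 3 higher and 4 lower, and 8 higher and 1 lower of these lists. Of all 18044 genes 2674 were higher and 2923 lower at that threshold. Acaa2, the last enzyme of mitochondrial beta-oxidation, had a change of 0.80 ± 0.11 (adjusted p = 0.00021), and Acsl1, which activates long-chain fatty acids, one of 0.69 ± 0.13 (adjusted p = 0.0023). Hexokinase Hk2 and phosphofructokinase Pfkl had changes of 0.65 ± 0.12 and 0.62 ± 0.12. The respiratory subunit Sdhc had a change of 0.27 ± 0.09 (adjusted p = 0.049).

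Cell cycle genes were lower on day 7 in both arms. In MGT all 30 members had a change below 0, with a median of -0.80 (beside -0.03 for all genes). But 2 fell by at least 2-fold (beside 1.11% of all genes). By limma, 24 had adjusted p under 0.05 (beside 3403 of 18044 in either direction). Kif20a, a mitotic kinesin, stood at 2.65 and 2.64 and then at 1.64 and 1.55, a change of -1.05 (SE 0.12, adjusted p = 7.6e-05). Ccnb2, a mitotic cyclin, stood at 3.17 and 3.18 and then at 2.20 and 2.11, a change of -1.03 (SE 0.16), which without MGT D7 replicate 2 was -0.98 and under 2-fold. With 1 array left out 1 to 3 genes were called.

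In LacZ 23 of the 30 fell (beside 2.83% of all genes) and the median was -1.41. For each of the 30 genes the LacZ change was the lower (median difference 0.57, beside -0.02 for all genes), and the difference passed at 2-fold for none. By limma, 4 differences had adjusted and 17 unadjusted p under 0.05, beside 447 and 1601 of all 18044 genes that were higher in MGT. The median level of the list was 2.30 and 2.43 in MGT D5 and 3.02 and 3.01 in LacZ D5, and 1.57 and 1.56 in MGT D7 and 1.46 and 1.51 in LacZ D7. The arms were thus further apart on day 5 than on day 7. Among cyclin-dependent kinase inhibitors, which stop the cycle, the senescence-associated Cdkn2a rose in LacZ by 1.99 against a change of 0.85 ± 0.13 in MGT (difference -1.13, adjusted p = 0.0028). Its neighbour Cdkn2b showed 1.46 in LacZ and 0.42 in MGT (difference -1.04, adjusted p = 0.0038), which was under 2-fold without MGT D5 replicate 1, MGT D7 replicate 1 or LacZ D7 replicate 2 (-0.94 to -0.97). Cdkn1c had a change of -0.81 in MGT and 0.46 in LacZ, and that difference missed the threshold in 6 of the 8 fits with 1 array left out (adjusted p = 0.021, up to 0.086).

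The interferon response was the list with the highest share of rises. These genes answer type I interferon and mostly encode antiviral proteins. Of 27 members 19 rose (beside 2.58% of all genes), 26 had adjusted p under 0.05, and all 27 had a higher level on both day 7 arrays than on either day 5 array (29.5% of all genes did, and 35.7% had both day 7 arrays below both day 5 arrays). Their median change was 1.30, and 17 to 19 rose with 1 array left out. In LacZ 4 rose (beside 3.04% of all genes), none fell and the median change was 0.49. By limma, 14 of the 27 were higher on day 7 in LacZ at adjusted p under 0.05, beside 2597 of all 18044 genes.

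The median level of these genes was 1.20 and 0.93 in MGT D5, 2.31 and 2.50 in MGT D7, 2.52 and 2.49 in LacZ D5, and 3.15 and 3.16 in LacZ D7. All 27 were lower in MGT D5 than in LacZ D5 by group mean. Irf7, the factor that amplifies interferon production, stood at -1.19 and -1.30 in MGT D5 and at 0.21 and -0.03 in MGT D7, against 1.32 and 1.28 and then 1.05 and 1.05 in LacZ. It rose by 1.33 ± 0.17 in MGT, and the difference from LacZ was 1.58 (adjusted p = 0.0026). Rtp4, an interferon-induced regulator, was the only other member whose difference passed at 2-fold (1.07, adjusted p = 0.013). Of all genes 1.11% had a difference that passed as higher. For both, the call held in all 8 fits with 1 array left out.

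Mx1, an antiviral GTPase, rose in both arms, by 2.47 ± 0.36 in MGT (from -4.36 and -4.43 to -1.93 and -1.92) and 2.47 in LacZ. Cxcl10, an interferon-induced chemokine, rose by 2.28 ± 0.28 in MGT and 1.72 in LacZ. Isg15, a ubiquitin-like protein, stood at 4.84 and 4.91 and then at 6.26 and 6.23 in MGT, a rise of 1.37 ± 0.15. Ifit3, an RNA-binding antiviral protein, rose by 1.92 ± 0.24. The difference from LacZ did not pass at 2-fold for any of these 4.

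Of 21 chemokine, cytokine and complement genes 8 rose, none fell and the median change was 0.61, beside 7 that rose and 2 that fell in LacZ. Of all genes 2.58% rose and 1.11% fell in MGT, and 3.04% and 2.83% in LacZ. Ccl3 and Ccl4, chemokines made mainly by macrophages, rose by 2.22 ± 0.31 and 1.98 ± 0.29 in MGT and by 2.66 and 2.51 in LacZ. Their day 7 replicates lay apart, at 1.19 and 2.25 for Ccl3 and at 0.03 and 1.11 for Ccl4, though above both day 5 values. Il6, a cytokine of activated fibroblasts and other cells, stood at 2.04 and 1.91 in MGT D5 and at 2.96 and 3.25 in MGT D7, while LacZ stayed at 4.12 and 4.15, then 4.11 and 4.12. Its rise of 1.13 ± 0.13 was 0.99 without MGT D7 replicate 2, and the difference from LacZ was 1.15 (adjusted p = 0.0029).

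The complement component C4b rose in both arms, by 1.54 ± 0.18 in MGT and 2.07 in LacZ. C3, the central complement component, rose by 2.10 in LacZ against a change of 0.68 in MGT (difference -1.42, adjusted p = 0.00036). Cxcl5, a neutrophil-attracting chemokine, fell in LacZ by 1.52 and had a change of 0.69 in MGT (difference 2.21, adjusted p = 0.0026).

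Some macrophage markers rose in both arms over the same step. In MGT 7 of 15 rose with a median of 1.11 (beside 2.58% of all genes), and in LacZ 8 with a median of 1.63 (beside 3.04%). Cx3cr1, the fractalkine receptor of resident macrophages, stood at -2.36 and -3.46 in MGT D5 and at -0.38 and 0.09 in MGT D7, a rise of 2.76 ± 0.35 (adjusted p = 0.00015), against 3.93 in LacZ. Fcgr1, an Fc receptor, rose at least 2.86-fold, with adjusted p of 0.10 without MGT D5 replicate 2 and 0.13 without MGT D7 replicate 2. Leaving out either of these arrays left 2 of the 7 rises. The level summed over the 15 markers, relative to the 75th percentile, was 59.7 and 48.5 in MGT D5, 70.2 and 106 in MGT D7, 38.0 and 38.3 in LacZ D5, and 83.0 and 76.0 in LacZ D7. In each arm this sum was higher on both day 7 arrays than on both day 5 arrays. Such a sum is weighted to the brightest probes. On day 5 it was higher in MGT than in LacZ, but the median marker level overlapped (0.38 and -0.11 in MGT, 0.08 and -0.0 in LacZ). The part of macrophages in the change of the interferon, chemokine and complement genes was not tested.

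Other leukocyte markers gave no rise or fall among 10 (limma; none at unadjusted p under 0.05 either), and T cell, B cell and neutrophil markers Cd3g, Cd79a, Ms4a1 and S100a9 were above background on none of the 4 MGT arrays.

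Immediate early genes answer serum and other stimuli within minutes. Of 14 tested, 4 rose and none fell in MGT (beside 2.58% and 1.11% of all genes), and 4 rose and 1 fell in LacZ (beside 3.04% and 2.83%). The change was higher in MGT for 12 of the 14 (median difference 0.13, beside -0.02 for all genes), and no difference passed at 2-fold. By limma, 1 difference was higher and 2 lower at unadjusted p under 0.05, beside 1601 and 1726 of all 18044 genes. Fos stood at -1.77 and -1.85 in MGT D5 and at 0.78 and 0.60 in MGT D7, a rise of 2.50 ± 0.10 (adjusted p = 4.2e-08), and it rose by 2.37 in LacZ. Egr1 stood at 2.37 and 2.46 and then at 4.99 and 4.68, a rise of 2.43 ± 0.10, and it rose by 2.29 in LacZ. On day 10, whose arrays shared the slide of day 7, MGT stood at -1.08 and -0.95 for Fos and at 3.51 and 3.36 for Egr1, below every day 7 array. Egr2 and Ier2 rose by 1.71 ± 0.12 and 1.38 ± 0.25.

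**Figure D4:**
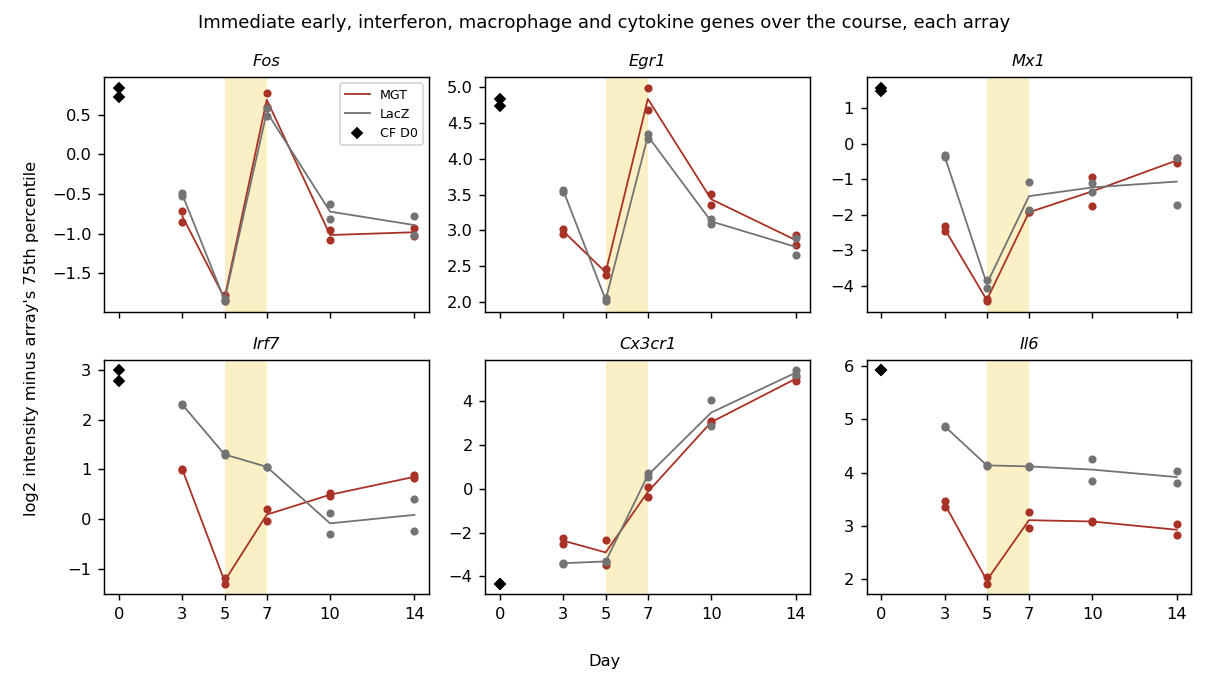
Level of 6 immediate early, interferon, macrophage and cytokine genes on each array over the course, by day, as log2 intensity minus the 75th percentile of the array. Points are single arrays, lines join group means of MGT (red) and LacZ (grey), diamonds are CF D0 and the shaded band is the step from day 5 to day 7. Fos and Egr1 are higher on day 7 than on days 3, 5, 10 and 14 in both arms, while Irf7 and Il6 rise within the band in MGT and have changes of -0.25 and -0.02 in LacZ.

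Among 26 fibroblast and matrix genes 4 rose and 1 fell (beside 2.58% and 1.11% of all genes), with a median of 0.33, beside 2 and 1 with a median of 0.27 in LacZ. Eln, the elastin of elastic fibres, stood at 0.66 and 0.67 in MGT D5 and at 2.90 and 2.59 in MGT D7, a rise of 2.08 ± 0.21 (adjusted p = 3.4e-05), and it rose by 2.12 in LacZ. Ogn, a small proteoglycan, stood at 3.13 and 2.96 and then at 4.39 and 4.54, a rise of 1.43 ± 0.09. Fmod, another proteoglycan that binds collagen, rose by 1.34 ± 0.13, and Col3a1, a fibrillar collagen, by 1.05 ± 0.14. The Col3a1 change was 0.99 without MGT D5 replicate 1 and 0.86 without MGT D7 replicate 2.

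Timp1, an inhibitor of matrix proteases, fell by 1.00 on the log2 scale in MGT and dropped by 1.04 in LacZ, and its MGT change was -0.89 without MGT D5 replicate 2 or MGT D7 replicate 1. Fap, a protease of activated fibroblasts, showed -0.27 in MGT and 0.89 in LacZ (difference -1.17, adjusted p = 0.0020). Among matrix proteases 3 of 14 rose (beside 2.58% of all genes) and none fell. Mmp9, a gelatinase, was above background on no day 5 array and on both day 7 arrays, a rise of at least 2.99-fold, and it also rose in LacZ. Mmp3, a stromelysin, stood at -0.86 and -0.95 and then at 0.17 and 1.39, a rise of 1.69 ± 0.28 that was 2.30 without MGT D7 replicate 1 and 1.07 without MGT D7 replicate 2. Its adjusted p was 0.82 with all 34 arrays and 0.0567 against 1.5-fold. Adamts5, an aggrecanase, rose by 1.07 ± 0.09, which was 0.99 without MGT D5 replicate 2.

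Of 18 myofibroblast and TGF-beta response genes none rose and 1 fell, beside 2.58% and 1.11% of all genes. Tnc, a matrix glycoprotein of wounds, fell by 1.23 on the log2 scale (SE 0.19), and its change was -0.99 without MGT D5 replicate 2. Col12a1, a fibril-associated collagen, rose in LacZ by 1.03 and had a change of -0.36 in MGT (difference -1.39, adjusted p = 0.00013).

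Endothelial markers were lower on day 7 in MGT. All 14 had a change below 0, 5 fell (beside 1.11% of all genes) and the median was -0.69 (beside -0.03 for all genes). In LacZ 1 rose and none fell (beside 3.04% and 2.83% of all genes), and the median was -0.45. Egfl7, a secreted endothelial protein, stood at 1.95 and 1.96 and then at 0.03 and 0.17, a change of -1.85 (SE 0.30, adjusted p = 0.0010), and it was called in all 4 fits with 1 array left out. Cdh5, the endothelial cadherin, stood at -1.65 and -1.62 and then at -3.10 and -3.93, and Tie1, an endothelial receptor kinase, at -4.15 and -3.50 and then at -6.04 and -7.55. Neither fall held when any 1 array was left out (adjusted p of 0.059 to 0.23 and 0.061 to 0.28), and 2 to 3 of the 5 falls remained in those fits. The difference from LacZ passed for Cldn5 alone (lower, beside 0.815% of all genes), which was above background on no MGT array. Summed over the list, the relative level was 33 and 34.7 in MGT D5 and 29.2 and 27 in MGT D7, 38.8 and 38.8 in LacZ D5, and 35.3 and 31.7 in LacZ D7.

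Imprinted growth genes are a network known for falling together as tissues mature after birth. In MGT 3 of 13 fell (beside 1.11% of all genes), with a median of -0.48. In LacZ none fell (beside 2.83% of all genes) and the median was 0.05. The difference between the arms passed for 1 of the 13, Dlk1 (lower, beside 0.815% of all genes). Fewer of the MGT falls were kept without MGT D5 replicate 2. Mest, a hydrolase-like protein, stood at 1.85 and 2.02 and then at 0.20 and 0.16, a change of -1.75 (SE 0.39, adjusted p = 0.0070, and 0.052 without MGT D5 replicate 2). Dlk1, a Notch-related membrane protein, stood at -1.25 and -1.24 and then at -2.42 and -2.52, a change of -1.23 (SE 0.16), and its difference from LacZ of -1.86 passed (adjusted p = 0.00051). Igf2, a fetal growth factor, fell by 1.44 on the log2 scale (SE 0.39, adjusted p = 0.021), with adjusted p of 0.16 without MGT D5 replicate 2, 0.12 without MGT D7 replicate 1 and 0.066 without MGT D7 replicate 2.

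In the other lists of cell types and signals few genes moved. Of all genes 2.58% rose and 1.11% fell in MGT, and 3.04% and 2.83% in LacZ. Cspg4, a proteoglycan of pericytes, fell by 1.10 on the log2 scale in MGT and dropped by 1.52 in LacZ, and was the only call in MGT among 9 smooth muscle and pericyte markers (2 rose and 2 fell in LacZ), with a change of -0.94 without MGT D7 replicate 2. Krt19, a keratin of epicardium and other epithelia, fell by 1.04 on the log2 scale, and was the only call in MGT among 8 epicardial markers (2 fell in LacZ), with a change of -0.94 without MGT D5 replicate 2 and -0.99 without MGT D7 replicate 1. Dkk3, of the Dickkopf family of Wnt modulators, rose by 1.07 ± 0.12, and by 0.95 or 0.92 without replicate 2 of MGT D5 or MGT D7.

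The limma fit called none of 8 Schwann cell and neuronal markers, 4 erythroid markers or 16 polycomb and epigenetic regulators (2, 0 and 5 at unadjusted p under 0.05). Ezh2, the methyltransferase of polycomb, had a change of -0.74 ± 0.08 in MGT (adjusted p = 6.5e-05) and -0.89 in LacZ, under 2-fold in both.

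**Figure D5:**
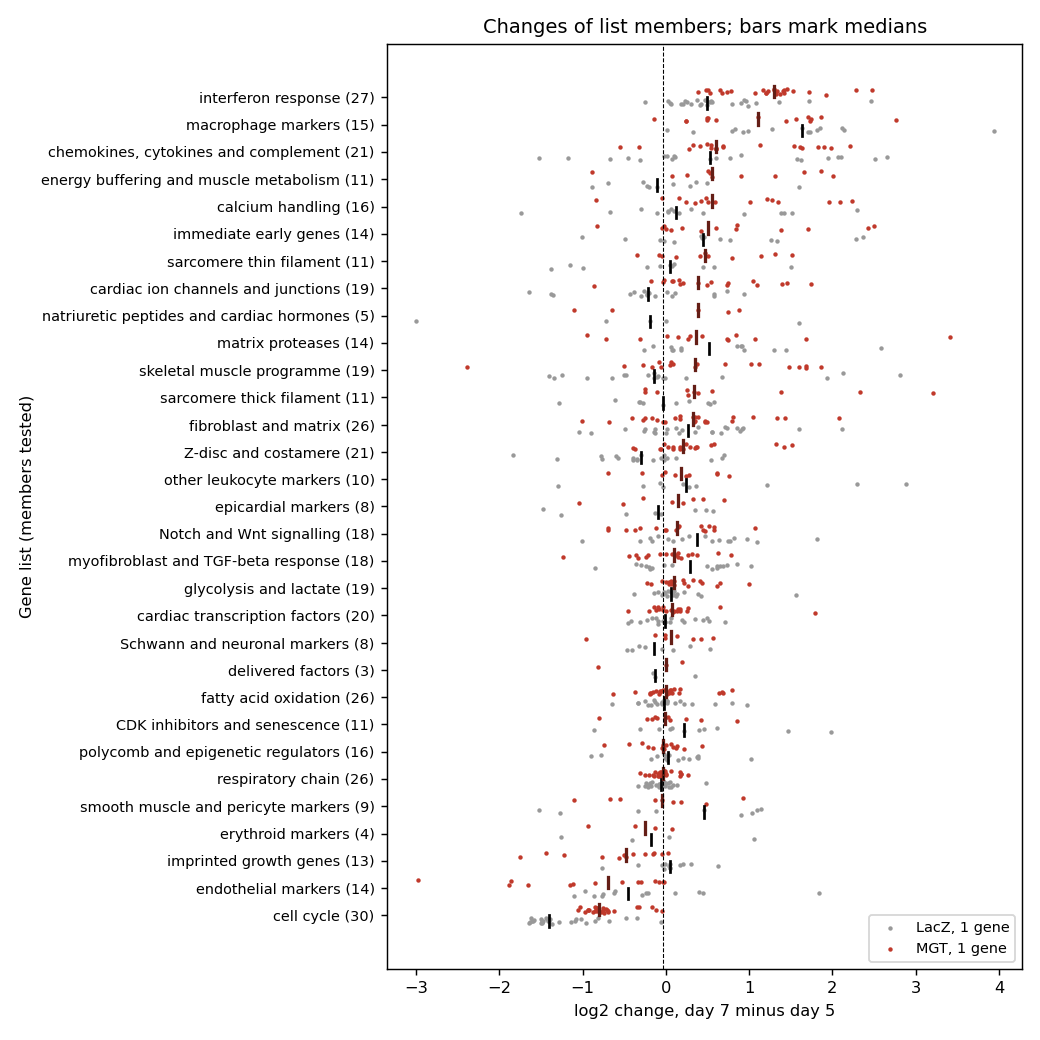
Change from day 5 to day 7 (horizontal axis, log2) of the tested members of each of the 31 gene lists (vertical axis, with the number of members), in MGT (red) and LacZ (grey). Each point is 1 gene, bars mark the list medians and the dashed line the median of all genes in MGT, -0.03. The interferon list has the highest MGT median, 1.30, and the cell cycle list the lowest, -0.80.

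The largest single changes were mostly in genes close to background on 1 of the days. Iqsec3, an exchange factor for ARF GTPases known from inhibitory synapses, was above background on no day 5 array and stood at -1.49 and -1.18 on day 7, a rise of at least 13.9-fold. It was not above background on any LacZ array of these days, and it stood at -0.45 and -0.46 on day 10 and at -0.58 and -0.87 on day 14 in MGT. Matn1, a cartilage matrix protein, rose at least 4.83-fold, and Ptpn5, a tyrosine phosphatase known from the striatum, at least 3.09-fold. Adra2c, an adrenergic receptor that restrains noradrenaline release, rose at least 1.94-fold. In these 4 genes both day 7 MGT arrays were above background and no LacZ array was.

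Tuba8, an alpha-tubulin of muscle and brain, stood at -3.62 and -3.86 and then at -0.81 and -0.34, a rise of 3.16 ± 0.24 with a difference from LacZ of 3.23. Pcp4l1, a relative of the calmodulin-binding protein Pcp4, stood at -2.86 and -3.13 and then at 0.18 and 0.23, a rise of 3.21 ± 0.42. Ccl12, a monocyte chemokine, rose by 3.99 ± 0.46 in MGT and 3.45 in LacZ, and Slc13a3, a dicarboxylate transporter, by 3.68 ± 0.36 and 5.01. Nxpe5 rose by 3.62 ± 1.05 (adjusted p = 0.029), and lost the call without MGT D5 replicate 2, MGT D7 replicate 1 or MGT D7 replicate 2. Myh7b, Myh6 and Mmp9, described above, complete the 12 largest rises.

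Most of the largest falls ended below background. Htr1d, a serotonin receptor, stood at -1.98 and -2.40 in MGT D5 and was above background on no day 7 array, a fall of at least 15.9-fold. Foxe3, a lens transcription factor, stood at -0.66 and -0.93 and then at -5.88 and -5.93, a change of -5.11 (SE 0.56, adjusted p = 5.2e-05). Htr1d and Foxe3 were 2 of the 3 genes that were at least 4-fold higher on both MGT D5 arrays than on each of the other 20 arrays of the course. The third was a vomeronasal receptor gene, and MGT D7 had no such gene.

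Klk1b26, a kallikrein, fell at least 18.7-fold on the probe used, but another of its probes gave a change of 0.75. Il23a, a subunit of interleukin 23, fell at least 7.56-fold, Kprp, a keratinocyte protein, 7.45-fold, Cdcp3 7.59-fold, Mixl1, a homeobox gene of early mesendoderm, 3.42-fold and Olfm2, an olfactomedin, 3.29-fold, each as a lower bound. Day 5 replicates lay apart for Kprp (-2.30 and -4.27) and Cdcp3 (-4.42 and -2.09). The falls of Dppa3, a germ cell gene, Cdk5r2, an activator of Cdk5, and Cdhr5, a cadherin-related protein, each lost the call without at least 2 of the 4 arrays taken singly. Tie1, described above, is the other of the 12 largest falls.

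The promoter motifs were counted in the 250 upstream bases of all genes with a RefSeq promoter entry. These were 13778 of the 18044 genes, 344 of the 466 that rose and 147 of the 201 that fell. The MEF2 motif was found in 2.62% of promoters of genes that rose, 3.40% of those that fell and 2.91% of all. The GATA motif was found in 15.1%, 15% and 11.4%, the T-box motif in 11.6%, 12.9% and 10.4%, and the muscle E-box in 15.4%, 12.9% and 12.1%. A match is a description of the letters in this window, and the shares were not tested.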

How the data were processed

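The samples, groups and arrays are those of the 22-array time course within the 34 single-colour Agilent arrays of the series. Per the file headers, the authors deposited scanner output of Agilent Feature Extraction 10.7.3.1, and the processed intensity is already background-corrected. The authors' deposited log2 values, used as an alternative, have column medians of 7.493 to 7.523; limma is named without a version in the submitters' processing notes, and the scaling behind these values is not given in the sources used here.

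From the intensity, log2 minus each array's log2 75th percentile was taken. Control spots and outlier flags were left out, spots of a probe averaged, and 38787 probes kept, each well above background in both replicates of some group. Of 55681 probes, 26050 were named by accession, 3205 by symbol and 930 by older symbol through RefSeq tables of GRCm38.p6, and 25496 had no name. A gene took 1 of its kept probes, and 4716 genes had more than 1. The array's own mm9 positions were not used. limma 3.58.1 (R 4.3.3, and data.table, version 1.17.8) fitted 11 group means to 22 arrays, with 11 residual and 1.68 prior degrees of freedom and Benjamini-Hochberg adjustment; tables and plots used Python 3.11.15, numpy 2.4.6, pandas 2.3.3 and matplotlib 3.10.9. The procedure was tested on simulated data. No per-sample column was left unused.

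The comparison, its members and the 31 gene lists (501 genes, 483 tested) were chosen with earlier results of these data known. Genes named are the 12 largest called rises and falls with an established symbol and above background on both arrays of the higher group, the 2 largest calls a direction in each list (or, in a list without calls, up to 2 members with the lowest p), the members of the sarcomere, Z-disc and calcium lists, the delivered factors, and the 5 largest differences between the arms in each direction. Other genes were named after their values were seen: Mhrt, Kcnh2, Dsp, Kcnj3, Gja1, Dsc2, Nppb, Myocd, Nkx2-5, Hand1, Hand2, Isl1, Tbx20, Gata6, Tnnt3, Tnni2, Myh1, Myh2, Myh8, Pygm, Art1, Cdkn2b, Irf7, Rtp4, Isg15, Ifit3, Il6, C3, C4b, Cxcl5, Egr2, Ier2, Col1a1, Col3a1, Dcn, Pdgfra, Ddr2, Thy1, Col12a1, Fmod, Fap, Adamts5, Egfl7, Cldn5, Dlk1 and the leukocyte markers. Replicate numbers did not pair the samples (correlation of deviations of MGT D5 and MGT D7, -0.048). Some results are not reported here.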

Additional observations from a re-analysis of the deposited data

Results flagged for a closer look

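The change from day 5 to day 7 differed between the MGT and LacZ arms for 348 genes by the limma test of the difference. The differences below, MGT change minus LacZ change in log2, are the 5 largest fitted values in each direction. Where a group is below background the fitted value is no exact size, and this touches each of these genes except Gsta1.

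Iqsec3 (5.33) and Matn1 (4.37) rose in MGT from below background and were above background on no LacZ array. Foxe3 (-5.73), Htr1d (-5.36), Klk1b26 (-4.84) and Il23a (-3.90) fell in MGT with LacZ changes that did not pass the test. The Klk1b26 difference was lost when the mean of its probes was used (adjusted p = 0.906), and that of Il23a reached an adjusted p of 0.075 with 1 array left out.

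The fitted difference of Kcnc2, a potassium channel (5.00), rests on MGT values below background on both days and LacZ values below background on day 7, so it has no exact size. In LacZ the gene stood at -1.32 and -2.93 on day 5 and fell at least 13.1-fold. Gsta1, a glutathione transferase (4.72), stood at 0.64 and 0.67 and then at 2.06 and 2.40 in MGT, and at -1.52 and -1.42 and then at -5.11 and -4.11 in LacZ. Defb19, a defensin (4.49), rose in MGT at least 2.51-fold. Sim1, a transcription factor of the hypothalamus (-4.77), had changes of -2.76 in MGT and 2.01 in LacZ.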

How the results depend on the processing

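The counts of genes called were 667 (MGT), 1059 (LacZ) and 348 (difference between the arms). They moved by over 1.5 times under these settings, given in that order: 368, 540 and 221 with normexp and quantile normalization; 242, 503 and 94 with all 34 arrays; 273, 519 and 88 with a test against 1.5-fold; and 371, 630 and 188 for genes above background on all 8 arrays, which was chosen after seeing the data. With no filter on dim probes LacZ gave 2884. Leaving out 1 array of days 5 and 7 lowered most of the counts, but none by over 1.5 times. Leaving out LacZ D14 replicate 2, chosen after seeing the data, raised each count by under 1.5 times. With the replicate block the 16 arrays of days 3 to 10 gave 669, 1015 and 408, against 678, 1013 and 414 without it, and the replicate numbers did not pair the samples. Slide as a block could not be fitted and was not run. Of 70 named genes called in MGT, 29 kept the call under every setting and none reversed; of 1200 pairs of gene and setting, 147 lost the call. Of 10 named differences 7 kept the call. The cause of these shifts was not tested. Genes near background have only bounds.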
